A study of Homo sapiens with 105 samples.

Results

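The genes described here are 10 of the 63241 genes in the count table of Caco-2 cells. Caco-2 is an established line grown out of a human colon carcinoma and serves as a model of the gut epithelium. They come from a list of genes with which cells detect microbes. The list holds the Toll-like receptors (TLRs) TLR2, TLR3, TLR4, TLR5 and TLR7, the TLR4 partners LY96 and CD14, the cytosolic receptors NOD1 and NOD2, and the adaptor MYD88. Cells were incubated with membrane vesicles (MVs) of Lacticaseibacillus casei or Enterococcus faecalis or with outer membrane vesicles (OMVs) of Proteus mirabilis, or were transfected by Lipofectamine with the RNA of these vesicles (100 ng of L. casei MV-RNA, 5 ng of E. faecalis MV-RNA and 2 ng of P. mirabilis OMV-RNA). LPS, that of P. mirabilis per the study's methods, was given in the medium (0.2 ng per µl in the labels) or transfected (1 ng per µl in the labels). The study's methods give the same figures per ml, so the dose is uncertain. PBS was the control of vesicles and of LPS in the medium. A negative control siRNA (ANC) at 100, 5 or 2 ng was the control of the 3 vesicle RNAs, and 2 ng of it was also that of transfected LPS. All groups were of the same line, sampled at 10 and 24 h, and those with L. casei MVs, L. casei MV-RNA, 100 ng ANC and PBS also at 48 h.

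The 39 libraries from lanes 2 to 4 of flow cell 1 were set aside and enter only the alternative called all libraries. The 66 others form 28 groups, 20 of 2 libraries, 6 of 3 and 2 of 4, with 632659 to 8558755 counts per library and a median of 5563438. The labels number the replicates 2 to 5 (28, 27, 6 and 5 libraries) without saying whether a number is a separate culture, so p-values measure only the spread between these libraries. All 12 epithelial markers had counts, among them the keratin KRT8 (3218 CPM, its counts per 1000000 counts, over the 66 libraries pooled) and the adhesion molecule CDH1 (866 CPM). Of the 12 leukocyte markers, 7 reached 1 CPM, led by the lysozyme gene LYZ (85.1 CPM) and the growth factor receptor CSF1R (8.74 CPM), whereas the pan-leukocyte gene PTPRC had 2 counts and the B cell gene MS4A1 had 1. Of the 8 stromal and endothelial markers, 4 reached 1 CPM, namely the collagens COL1A1 (36.02 CPM) and COL3A1 (1.35 CPM), LUM (6.32 CPM) and PECAM1 (5.15 CPM). In RNA from whole cultures, fewer cells of a type and less RNA per cell cannot be told apart.

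TLRs recognise molecules that many microbes share, and each has its own ligand and place in the cell. At the surface TLR2 binds lipopeptides and TLR5 binds flagellin, whereas TLR4 senses LPS in a complex with LY96 (also called MD-2), to which CD14 passes the LPS. TLR3 and TLR7 sit in endosomes and bind double-stranded and single-stranded RNA, NOD1 and NOD2 detect peptidoglycan fragments in the cytosol, and MYD88 carries the signal of all these TLRs except TLR3 towards NF-κB.

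The promoters of 3 genes are set out because the genes behind them differed in level and in course: TLR5 and NOD1 were both higher at 24 h than at 10 h, and NOD2 is the scarce relative of NOD1. Each run is the 250 bases before a RefSeq start (build GRCh38.p14, 5′ to 3′ on the strand of the gene), with GGGCGG on either strand, the letters of a GC box, in capitals. The windows lie at chr1:223143249-223143498 on the minus strand (TLR5), at chr7:30478785-30479034 on the minus strand (NOD1) and at chr16:50696698-50696947 on the plus strand (NOD2).
TLR5: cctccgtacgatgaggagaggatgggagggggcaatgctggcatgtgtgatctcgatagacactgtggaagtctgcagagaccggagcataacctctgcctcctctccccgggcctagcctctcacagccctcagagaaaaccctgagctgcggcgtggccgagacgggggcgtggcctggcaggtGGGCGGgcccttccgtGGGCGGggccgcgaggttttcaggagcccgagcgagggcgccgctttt
NOD1: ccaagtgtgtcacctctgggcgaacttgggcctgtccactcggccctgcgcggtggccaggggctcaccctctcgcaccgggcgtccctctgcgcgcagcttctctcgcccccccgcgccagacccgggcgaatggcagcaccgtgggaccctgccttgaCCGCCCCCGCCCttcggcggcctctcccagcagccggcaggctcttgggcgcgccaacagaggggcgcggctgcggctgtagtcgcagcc
NOD2: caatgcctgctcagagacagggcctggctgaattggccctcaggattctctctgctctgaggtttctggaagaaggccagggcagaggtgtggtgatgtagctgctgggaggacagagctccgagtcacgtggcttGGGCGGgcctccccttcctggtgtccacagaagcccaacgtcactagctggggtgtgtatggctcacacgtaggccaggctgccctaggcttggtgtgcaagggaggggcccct

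The NOD1 window held 26 CpG dinucleotides and the TLR5 window 19, against 5 in the NOD2 window. The NOD1 and TLR5 windows end at the annotated start of their genes, whereas the NOD2 window lies inside its annotated gene. These windows are therefore not alike in place. Over the 35116 promoters of this length in the RefSeq table the median was 11, and the quartiles were 3 and 23. GGGCGG was found 2 times in the NOD1 window, 2 times in the TLR5 window and 1 time in the NOD2 window, and 42.6% of all promoters held it on either strand. Of the 8 genes with an entry, TLR2 (26 CpG) and MYD88 (19) also lay above that median, while TLR3 (3), CD14 (5) and TLR4 (5) lay below it. An NF-κB motif of 10 letters, on either strand in 1.73% of all promoters, was in none of the windows of these 8 genes. A second NOD2 start has its window at chr16:50699130-50699379, also inside the annotated gene. That window has 4 CpG and no GGGCGG or CACGTG, and the first is the one shown. Of the other letters searched on both strands, CACGTG (6.34% of promoters) was in the TLR2 and the first NOD2 windows, TGANTCA (6.57%) was in that of CD14, and CCGGAAG (8.52%) was in none. A match describes letters and not binding.

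Which of the 10 genes were present was read from their counts over all 66 libraries pooled. MYD88 (chr3:38138552-38143024, plus strand) was the best expressed, with 13346 counts or 37.7 CPM. Between libraries it ran from 25.8 to 47.8 CPM with a median of 38.1 CPM, and every library held it. Per kilobase of exon, the scale on which levels of different genes are compared here, it reached 8.99 CPM, a level that 5392 of the 62666 genes with a length reached or passed.

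Of the surface receptors, TLR2 (chr4:153684070-153706260, plus strand) had 4011 counts, 11.3 CPM or 1.96 CPM per kb, and every library held it. TLR5 (chr1:223109404-223143248, minus strand) had 739 counts, 2.09 CPM or 0.270 CPM per kb. It was found in 65 of 66 libraries, and the library at 0, replicate 3 of P. mirabilis OMV-RNA at 10 h, was the shallowest of all.

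Of the LPS receptor complex, CD14 was clearly present and TLR4 and LY96 were at the limit of detection. CD14 (chr5:140631728-140633700, minus strand) had 1990 counts in all 66 libraries, 5.62 CPM, and with 3.41 CPM per kb it was second to MYD88 among the 10. TLR4 (chr9:117704175-117724735, plus strand) had 3 counts in a total of 354393731, which is 0.00847 CPM with a 95% exact Poisson interval of 0.0017 to 0.0247 CPM. LY96, on chromosome 8, had 5 counts, 0.0141 CPM (0.0046 to 0.0329). No library held more than 1 count of either gene. Such intervals cover counting error only. TLR4 also shares 678 bases (5.11% of its exons) with ENSG00000285082, a gene on the same strand with 74 counts, so that reads there cannot be assigned to 1 gene.

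Of the endosomal RNA sensors, TLR7 (chrX:12867072-12890361, plus strand) had 597 counts, 1.68 CPM or 0.324 CPM per kb, and was at 0 in 15 of 66 libraries. TLR3 (chr4:186068911-186088073, plus strand) had 82 counts, 0.231 CPM or 0.0309 CPM per kb, with at most 5 counts in a library. TLR3 was therefore found in 44 libraries, in each of them by a few reads.

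The cytosolic receptors stood apart in level. NOD1 (chr7:30424527-30478784, minus strand), which senses peptides with diaminopimelic acid, had 3276 counts in all 66 libraries, 9.24 CPM or 1.36 CPM per kb. NOD2 (chr16:50693588-50733077, plus strand), which senses muramyl dipeptide, had 191 counts in 59 libraries, 0.539 CPM or 0.0707 CPM per kb. NOD1 shares 741 bases (10.9% of its exons) with the antisense gene ENSG00000272638 (418 counts), and NOD2 shares 202 bases with CYLD-AS1 (124 counts). No strand option stands among the counting settings in the study's methods, and whether one was used is not known. Without one, reads in these stretches cannot be assigned to 1 gene.

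**Figure D1:**
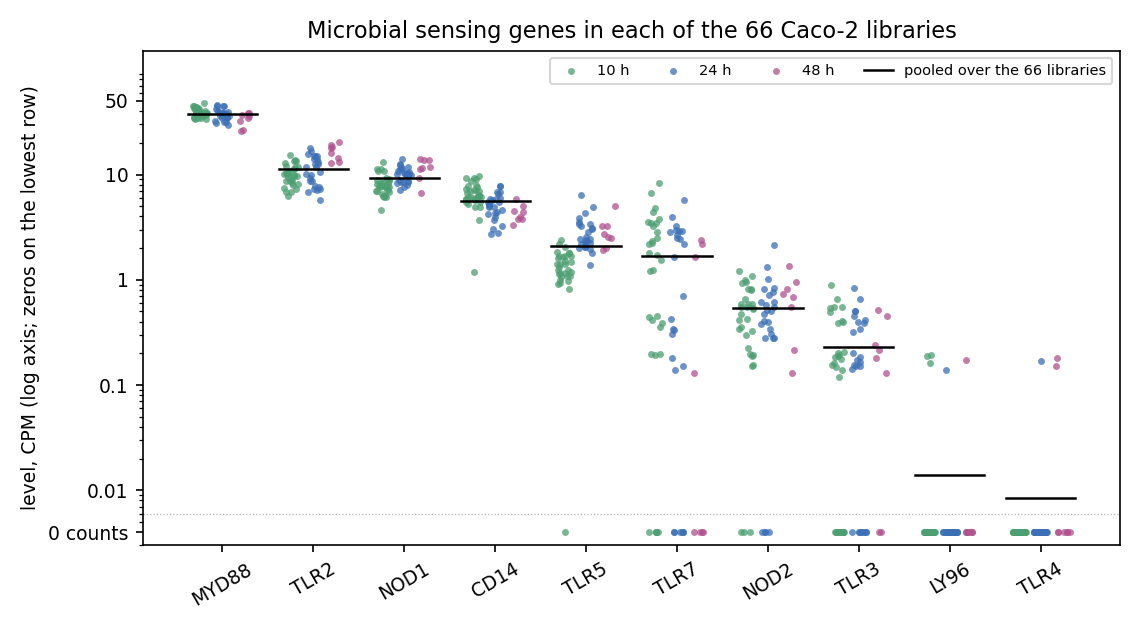
Level of each of the 10 sensing genes in each of the 66 libraries, in CPM on a log axis and coloured by time, with libraries at 0 on a separate row and a line at the level over all libraries pooled. MYD88, TLR2, NOD1 and CD14 were found in all 66 libraries, TLR7 was at 0 in 15, and TLR4 and LY96 were found in 3 and 5.

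Per kb of exon the order was MYD88, CD14, TLR2, NOD1, TLR7, TLR5, NOD2, TLR3, LY96 and TLR4. TLR7 and TLR5 were neighbours, and their order rested on the mix of replicate numbers. TLR7 had 0.581 and 0.783 CPM per kb in replicates 3 and 4, against 0.0760 and 0.0502 in replicates 5 and 2, while TLR5 had 0.281, 0.208, 0.176 and 0.289 CPM per kb in replicates 3, 4, 5 and 2. LY96 stood next to TLR3 with 5 counts because its exons span only 559 bases.

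Behind the receptors, most of the signalling machinery was present. On the list of TLR chaperones and trafficking, UNC93B1 (43.7 CPM), which escorts endosomal TLRs, stood beside solute carriers such as SLC15A4. At least 1 CPM was reached by 10 of 10 genes on this list. It was reached by 4 of 5 TIR adaptors (TICAM2, the bridging adaptor of TLR4, had 0.234 CPM), by 22 of 23 kinases and ligases, by 11 of 11 negative regulators and by 8 of 8 transcription factors. The kinase below it was IRAK3, with 4 counts.

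Other sensors were sparser, and 6 of 21 reached 1 CPM. The DNA sensor CGAS led them with 37.6 CPM or 9.00 CPM per kb, close to MYD88. TLR9, TLR10 and NLRP3 had 0 counts, which allows up to 0.00847 CPM (3 counts of the pooled total), and TLR1 and TLR6, the partners of TLR2, had 10 counts each. Of 13 secreted outputs, 3 reached 1 CPM, and TNF and IFNB1 had 0 counts.

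**Figure D2:**
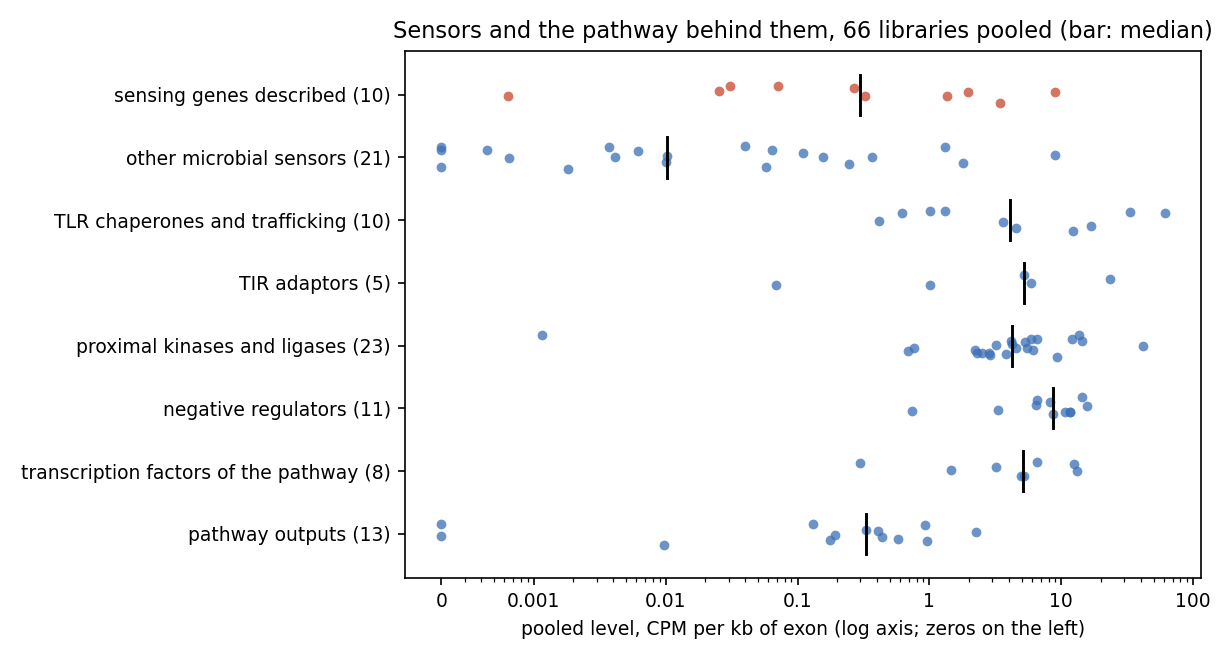
Level per kb of exon (CPM per kb over the 66 libraries pooled, log axis) of the 10 sensing genes and of 7 lists of genes around them, 1 point per gene. Of the sensors 6 of 21 and of the outputs 3 of 13 reached 1 CPM, against 22 of 23 kinases and ligases and 8 of 8 transcription factors.

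Tests were possible for 6 of the 10 genes. MYD88, TLR2, NOD1, CD14, TLR5 and TLR7 passed a filter on low counts, and NOD2, TLR3, LY96 and TLR4 did not and are given by their counts. All 66 libraries entered 1 fit with the replicate number as a block, by the quasi-likelihood F test of edgeR. A gene passed at a Benjamini-Hochberg adjusted p under 0.05 over all 19233 genes tested, and every adjusted p below is from this edgeR test. Changes are log2 fold changes ± standard error, and levels per library are CPM on library sizes scaled by TMM.

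With time in culture TLR5 and NOD1 rose and CD14 fell between 10 and 24 h, averaged over the 12 treatments sampled at both times. These are 3 of the 6 genes, beside 53.5% of all genes tested. TLR5 had a lowest, median and highest level of 1.37, 2.45 and 6.37 CPM at 24 h, against 0, 1.36 and 2.39 CPM at 10 h. The ranges overlapped, but TLR5 was higher at 24 h in 24 of 25 pairs of the same treatment and replicate number. The change was 0.93 ± 0.13 (adjusted p = 1.53e-09), and 0.53 with all libraries and the block.

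NOD1 had 7.20, 10.0 and 14.1 CPM (lowest, median, highest) at 24 h, against 4.61, 7.77 and 13.1 CPM at 10 h. It rose by 0.32 ± 0.07 (adjusted p = 6.26e-05) and was higher in 20 of 25 pairs. CD14 went the other way, with 2.74, 5.14 and 7.77 CPM at 24 h, against 1.2, 6.30 and 9.63 CPM at 10 h. Its change was -0.40 ± 0.08 (adjusted p = 3.68e-05), with a lower level in 23 of 25 pairs.

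TLR2, MYD88 and TLR7 did not pass between these times. TLR2 gave 0.14 ± 0.07 (adjusted p = 0.0633), or 0.31 (adjusted p = 6.53e-04) with the block set within each time. Its replicates went apart, with a median of 14.6 CPM at 24 h against 11.5 CPM at 10 h in replicate 2, and 8.18 CPM at 24 h against 8.69 CPM at 10 h in replicate 3. Most replicate 3 libraries were from flow cell 1 at 24 h and from flow cell 2 at 10 h. Time and flow cell therefore cannot be fully told apart in that replicate. Without replicate 3 the TLR2 change was 0.24 (adjusted p = 0.0153), and without replicate 2 it was -0.08 (adjusted p = 0.60). MYD88 gave -0.06 (adjusted p = 0.145), which passed with a mean of at least 1 CPM (-0.09, adjusted p = 0.029), without the 5 libraries under 1500000 counts (-0.10, adjusted p = 0.028) and without replicate 2 (-0.15, adjusted p = 0.019), but was 0.01 (adjusted p = 0.887) with the block within each time. TLR7 gave -0.15 (adjusted p = 0.646).

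Between 24 and 48 h, in the 4 treatments sampled at both, TLR2 rose and MYD88 fell, 2 of the 6 genes beside 42.2% of all genes tested. At 48 h TLR2 had 18.1 and 14.5 CPM with L. casei MVs, 20.3 and 13.0 CPM with L. casei MV-RNA, 19.2 and 13.1 CPM with 100 ng ANC, and 18 and 16.0 CPM with PBS. It was higher at 48 h in 7 of 7 pairs, by 0.42 ± 0.10 (adjusted p = 4.18e-04). This call was lost without the replicate block (0.45, adjusted p = 0.0792) and with all libraries (0.19, adjusted p = 0.249).

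MYD88 had a median of 35.2 CPM at 48 h, against 37.5 CPM at 24 h. The change was -0.20 ± 0.07 (adjusted p = 0.00874), lower in 5 of 7 pairs, and it was lost with the block set within each time (-0.14, adjusted p = 0.129) and without replicate 3 (-0.13, adjusted p = 0.176). It was also lost without replicate 2 of ANC at 24 h (adjusted p = 0.0525), replicate 3 of L. casei MVs at 24 h (0.0608) or replicate 3 of L. casei MV-RNA at 48 h (0.0551). NOD2 had median levels of 0.500, 0.490 and 0.712 CPM at 10, 24 and 48 h, and TLR3 had 0.158, 0.169 and 0.199 CPM, with overlapping ranges. Beside these times, the 8 stromal and endothelial markers summed to medians of 35.6, 56.8 and 83.1 CPM at 10, 24 and 48 h, while the collagen COL1A2 had 2 counts and DCN had 7 in all, and the part of these markers in the results was not tested.

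The receptors also differed by replicate number. Between replicates 3 and 2, 5 of the 6 genes passed, beside 61.5% of all genes tested. TLR7 differed most, with a lowest, median and highest level of 0, 2.81 and 6.64 CPM in replicate 3, against 0, 0.166 and 1.72 CPM in replicate 2. It was higher in replicate 3 in 26 of 27 pairs, by 3.23 ± 0.22 (adjusted p = 3.36e-21).

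Replicate 4 resembled replicate 3 in this gene, and replicate 5 resembled replicate 2. Replicate 4 had 2.21, 3.11 and 8.35 CPM of TLR7 and differed from replicate 2 by 3.42 ± 0.31 (adjusted p = 6.58e-15), in a contrast where 40.8% of all genes passed. Replicate 5 had 0, 0 and 1.24 CPM and differed from replicate 2 by 1.14 ± 0.67 (adjusted p = 0.562), in a contrast where 0.811% of all genes passed. As counts, TLR7 had 416 in the 27 libraries of replicate 3 and 129 in the 6 of replicate 4, against 11 in the 5 of replicate 5 and 41 in the 28 of replicate 2.

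TLR2 ran the opposite way, with 5.79, 8.66 and 15.5 CPM in replicate 3, against 9.73, 13.3 and 20.3 CPM in replicate 2. It was lower in replicate 3 in 24 of 27 pairs, by -0.55 ± 0.06 (adjusted p = 2.07e-12), and in replicate 4 by -0.65 ± 0.12 (adjusted p = 9.84e-06). CD14 was higher in replicate 3 than in replicate 2 by 0.44 ± 0.08 (adjusted p = 2.10e-06) and NOD1 by 0.32 ± 0.07 (adjusted p = 1.95e-05). MYD88 differed by -0.09 ± 0.04 (adjusted p = 0.0259), a call that was lost under DESeq2 (adjusted p = 0.111) and when any of several single libraries was left out (adjusted p up to 0.103). TLR5 differed by -0.03 without passing.

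**Figure D3:**
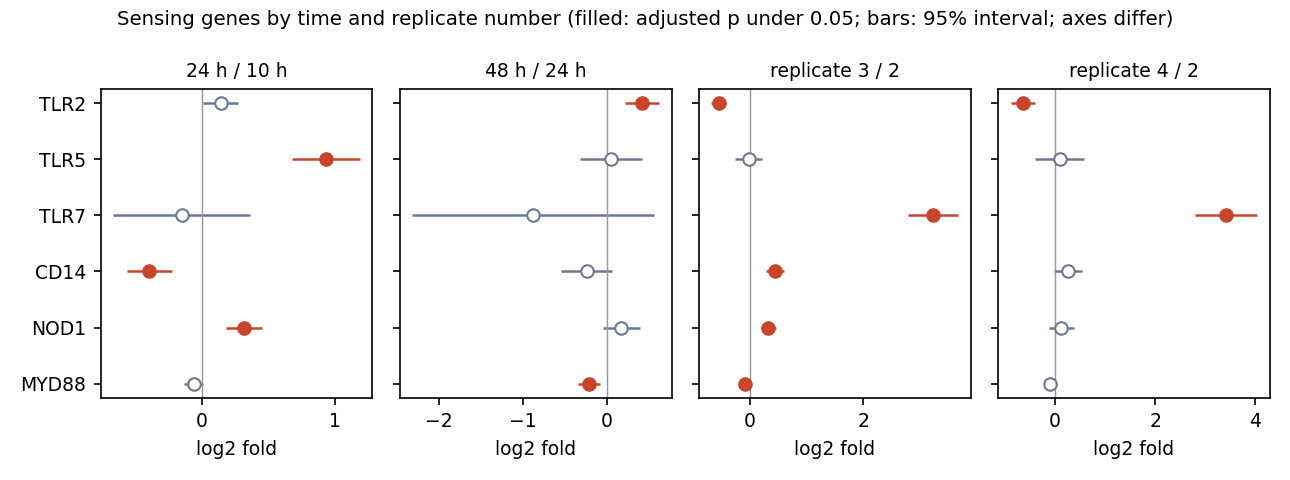
Log2 fold change with its 95% interval for the 6 tested genes between times (24 h over 10 h, 48 h over 24 h) and between replicate numbers (3 over 2, 4 over 2), filled where the adjusted p was under 0.05, with an axis of its own in each panel. TLR5 stands at 0.93 for 24 h over 10 h, and TLR7 stands at 3.23 and 3.42 for replicates 3 and 4 over 2.

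TLR7 and CD14 are also genes of leukocytes, so the 12 leukocyte markers were set beside them. Their sum had a median of 185 CPM in replicate 3, 182 CPM in replicate 4, 27.3 CPM in replicate 5 and 28.3 CPM in replicate 2. LYZ, the lysozyme gene, carried this pattern, with medians of 168, 169, 8.77 and 10.0 CPM in replicates 3, 4, 5 and 2. The other 11 markers summed to medians of 15.3, 13.0, 18 and 18.7 CPM in the same order, and PTPRC had 0, 1, 0 and 1 counts. Replicates 4 and 5, which differed in TLR7, were both sequenced in lane 4 of flow cell 2. Replicates 2 and 3 lay in lane 1 of flow cell 1 and lanes 1 and 2 of flow cell 2, and replicate 3 also in lane 4 there. The part of lane and of the leukocyte markers in the TLR7 difference was not tested.

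Each treatment was then set against its control. In 18 comparisons of a treatment with its control the 6 genes gave 108 tests, of which 1 passed, beside 0.219% of all such tests over all genes. It was TLR7 with P. mirabilis OMVs at 10 h, in a comparison where 1.09% of all genes passed. TLR7 had 1.72, 6.64 and 8.35 CPM in replicates 2, 3 and 4 with OMVs, against 0.419 and 1.78 CPM in replicates 2 and 3 with PBS, from 11, 56 and 47 counts with OMVs and 1 and 13 counts with PBS. The groups overlapped across replicate numbers, and within a number the OMV library was the higher.

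The TLR7 change was 2.01 ± 0.50 (95% interval 1.01 to 3.00, adjusted p = 0.0236). It rested on few libraries, since without replicate 3 of PBS it was 0.87 (adjusted p = 0.939) and without replicate 2 of the OMVs it was 1.84 (adjusted p = 0.0653). Without the replicate block the same 2.01 had a standard error of 1.47 (adjusted p = 1.00), and with all libraries and the block the change was 1.75 (adjusted p = 0.960). LYZ ran from 11.8 to 185 CPM with OMVs and from 10.1 to 158 CPM with PBS, the other 11 leukocyte markers summed to 12.5 to 14.7 CPM with OMVs and to 13.8 to 15.8 CPM with PBS, and PTPRC was at 0 in both.

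At 24 h TLR7 had 1.66 and 5.69 CPM with OMVs, against 0 and 2.81 CPM with PBS, which did not pass (1.44 ± 0.58, adjusted p = 0.908) where 0.109% of all genes did. Set against LPS in the medium at 10 h, which had 0.445 and 2.36 CPM, the OMV libraries differed by 1.53 ± 0.47 (adjusted p = 0.0559), where 3.15% of all genes passed. At 24 h the difference from LPS was 1.65 ± 0.59 (adjusted p = 0.791), with 0 and 2.51 CPM in the LPS libraries. These comparisons share the OMV libraries.

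Within each set of 1 time and 1 replicate number, the OMV library had the highest TLR7 level of all treatments in 5 of 5 sets. At 10 h it had 1.72 CPM against at most 0.445 CPM in the 11 other libraries of replicate 2, 6.64 CPM against at most 4.78 CPM in the 11 of replicate 3, and 8.35 CPM against at most 4.37 CPM in the 4 of replicate 4. At 24 h it had 1.66 CPM against at most 0.422 CPM in replicate 2 and 5.69 CPM against at most 3.96 CPM in replicate 3. Of all 19233 genes, 43 (0.224%) were highest with OMVs in all 5 sets.

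**Figure D4:**
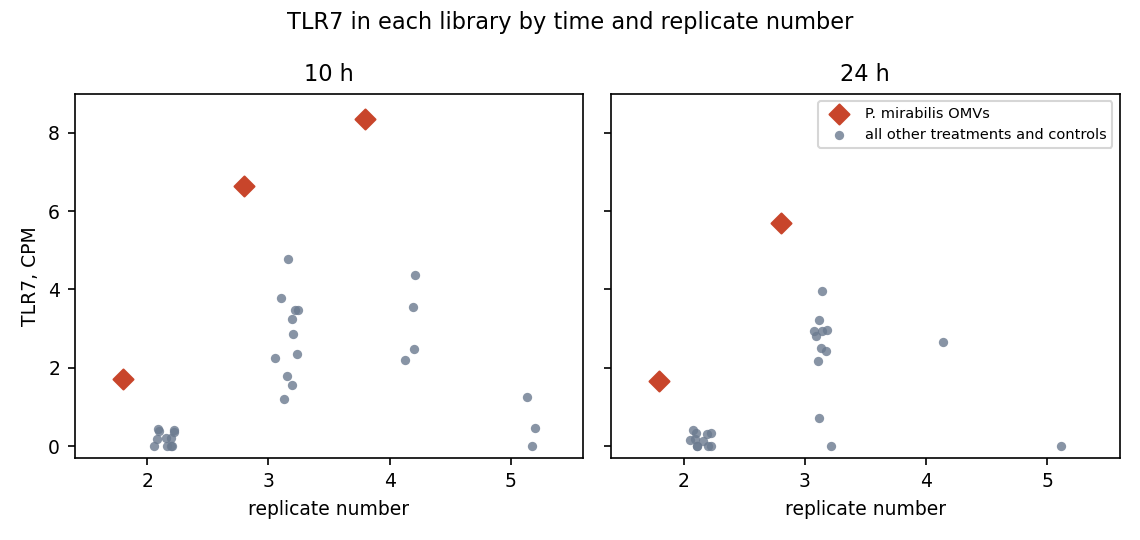
TLR7 in CPM within each set of libraries of 1 time and 1 replicate number, with the P. mirabilis OMV library marked apart from the other treatments. The OMV library was the highest in 5 of 5 sets, from 1.66 CPM in replicate 2 at 24 h to 8.35 CPM in replicate 4 at 10 h.

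The other 5 genes passed in none of the 18 comparisons by edgeR, and 3 of all 108 tests had an unadjusted p under 0.05, all of TLR7. MYD88 ran from -0.21 to 0.22 over the 18 comparisons and TLR2 from -0.32 to 0.30. NOD1 ran from -0.44 to 0.35, CD14 from -0.67 to 0.26 and TLR5 from -0.84 to 0.68, in the order of their falling counts. TLR5 had 6.37 and 2.84 CPM with OMVs at 24 h, against 3.22 and 2.21 CPM with PBS, a change of 0.68 ± 0.36 (adjusted p = 1.00).

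LPS in the medium moved none of the 6 past the test, beside 0 of all 19233 genes at 10 h and at 24 h. At 10 h CD14 had 6.08 and 7.25 CPM with LPS, against 5.86 and 6.31 CPM with PBS (0.21, 95% interval -0.34 to 0.75). TLR4 and LY96 had 0 counts in each of these 4 libraries, and also in the 3 with OMVs at 10 h. Over pooled libraries, NOD2 had 0.490 CPM with OMVs and 0.624 CPM with PBS at 10 h, and 0.843 and 0.178 CPM at 24 h. TLR3 had 0.294 and 0.416 CPM at 10 h, and 0.723 and 0.268 CPM at 24 h. These levels rest on 2 to 10 counts, their Poisson intervals overlapped, and neither gene was tested. With L. casei MVs at 48 h TLR7 had 0 and 2.41 CPM, against 0 and 0 CPM with PBS, but the second library of each was replicate 3 for the MVs and replicate 5 for PBS, so treatment and replicate number cannot be told apart there.

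None of the 6 genes passed in the other families of comparisons by edgeR. P. mirabilis against LPS gave 0 of 24 tests (2 at an unadjusted p under 0.05), beside 0.825% of all tests, and vesicle against vesicle gave 0 of 36 (4 unadjusted), beside 0.243%. ANC against PBS gave 0 of 18 (0 unadjusted), beside 0.0832%, and the difference between the effects at 24 and 10 h gave 0 of 24 (0 unadjusted), beside 0.0078%.

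**Figure D5:**
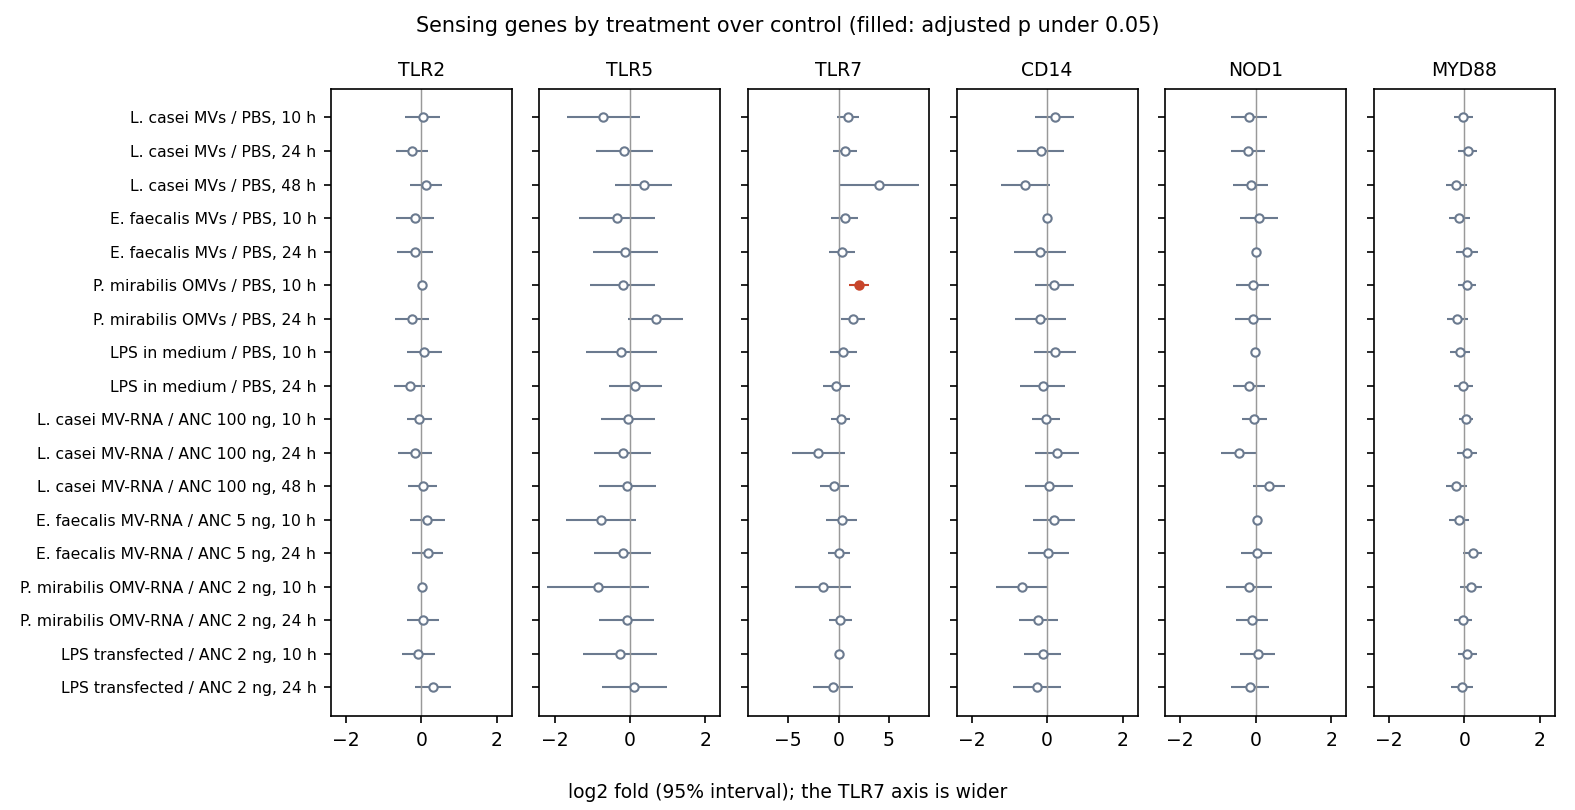
Log2 fold change with its 95% interval for the 6 tested genes in the 18 comparisons of a treatment with its control. No interval is drawn where the test statistic was near 0, and the filled point is TLR7 with P. mirabilis OMVs at 10 h, at 2.01.

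Downstream of the receptors, a few genes rose with P. mirabilis OMVs. Of the 71 tested genes on the lists around the 10, 4 passed at 10 h against PBS, all higher (5.63%, beside 1.09% of all genes), with a median change of 0.05 over the 71 and 0.00 over all genes. The lists were chosen with earlier results of these data known, so such shares are a description and not independent evidence. TNFAIP3, an inhibitor of NF-κB, had 72.2, 71.3 and 79.1 CPM with OMVs, against 41.5 and 38.9 CPM with PBS (0.86 ± 0.11, adjusted p = 1.95e-08). The kinase IKBKE had 26.0, 36.1 and 29.0 CPM with OMVs, against 13.0 and 15.2 CPM with PBS (1.08 ± 0.16, adjusted p = 3.28e-06). In both genes the groups did not overlap. Both were named for passing this test on the same values, and the share of all genes with such groups was not counted.

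Both others were chemokines. CXCL5, which attracts neutrophils, had 134 counts with OMVs and 0 with PBS, at least 21.0-fold higher against a floor of 3 counts over the group (adjusted p = 3.73e-08). CXCL10, which attracts T cells, had 71 counts with OMVs and 2 with PBS, a ratio of 16.7 with a counting interval of 4.46 to 141 (adjusted p = 0.00228). By list, 0 of 8 other sensors, 0 of 10 chaperone and trafficking genes and 0 of 4 adaptors passed at 10 h. Against these stood 1 of 22 kinases and ligases, 1 of 11 negative regulators, 0 of 8 transcription factors and 2 of 8 outputs. In lists of this size a count of 0 lies near the background of 1.09%. With all libraries and the block 1 of the 71 passed, namely CXCL5, so that TNFAIP3, IKBKE and CXCL10 were lost. CXCL10 was also lost without the block, and with 1 library left out its change ran from 2.98 to 4.12.

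At 24 h 7 of the 71 passed against PBS, all higher (9.86%, beside 0.109% of all genes), with a median of 0.09 over the 71 and 0.00 over all genes. TNFAIP3 had 87.5 and 69.997 CPM with OMVs, against 36.7 and 29.3 CPM with PBS (1.24 ± 0.12), and IKBKE rose by 1.23 ± 0.18. The NF-κB inhibitor NFKBIA rose by 0.91 ± 0.16, the NF-κB subunit RELB by 1.25 ± 0.24 and the ubiquitin ligase BIRC3 by 1.48 ± 0.33. The chemokine CXCL1 rose by 2.64 ± 0.53, and CCL20 had 26 counts with OMVs and 3 with PBS, a ratio of 11.7 (3.59 to 60.4). With all libraries 0 of the 71 passed by edgeR, and the lowest changes with or without the block were 0.50 for TNFAIP3, 0.63 for IKBKE, 0.44 for NFKBIA, 0.34 for RELB and -0.18 for BIRC3. TNFAIP3 and IKBKE passed in 4 of 4 fits with 1 of their libraries left out, NFKBIA and RELB in 2, BIRC3 in 1, and CXCL1 and CCL20 in 0. Over the lists, without replicate 2 of the OMVs, replicate 2 of PBS or replicate 3 of PBS 2, 3 and 4 passed.

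Against LPS in the medium, 5 of the 71 passed at 10 h (7.04%, beside 3.15% of all genes), all higher with OMVs. They were CXCL5 (at least 27.8-fold), TNFAIP3 (0.70), IKBKE (0.64), CXCL10 (2.49) and the lymphotoxin gene LTB (2.54). At 24 h 7 passed (9.86%, beside 0.151%), all higher, among them TNFAIP3 (1.26) and ZC3H12A (1.15), an RNase that degrades cytokine mRNA. Of these calls against LPS, CXCL5 at 10 h alone passed with all libraries, and without the replicate block CXCL5 at 10 h, TNFAIP3 at both times and IKBKE at 24 h did. With 1 library left out at 24 h, TNFAIP3 passed in 4 of 4 fits, IKBKE and BIRC3 in 2, ZC3H12A and NFKBIA in 1, and CXCL1 and RELB in 0. At 10 h CXCL5 and TNFAIP3 passed in 5 of 5 such fits and IKBKE, CXCL10 and LTB in 3.

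With L. casei MVs at 48 h 6 of the 71 passed against PBS (8.45%, beside 2.7%). RELB (1.13), BIRC3 (1.60), TNIP1 (0.48) and RBCK1 (0.36) rose and ERBIN (-0.42) and BIRC2 (-0.40) fell, and none of the 6 passed with all libraries or without the replicate block. With all libraries and no block RELB (-0.014) and BIRC3 (-0.018) changed sign, and with 1 library left out each of the 6 passed in 0 to 2 of 4 fits. The MV libraries are replicates 2 and 3 and the PBS libraries replicates 2 and 5, so treatment and replicate number cannot be told apart in these genes either.

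Across the 66 libraries, the genes most like each of the 4 best expressed members were named by Pearson correlation of log2 CPM, as a description, since the points share time, replicate number and depth. TLR2 was nearest to PMPCB (r = 0.863), SERPINC1 (0.856) and TPCN2 (0.851). CD14 was nearest to VEPH1 (0.766), DOK3 (0.707) and ENSG00000205622 (0.685). NOD1 was nearest to TNKS (0.731), ITGA3 (0.725) and CDC25C (0.714), and MYD88 to SAMM50 (0.630), DNAJC8 (0.615) and DDX6 (0.606).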

How the data were processed

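Total RNA of Caco-2 cells was sequenced in 105 libraries. Per the labels, the authors aligned reads to GRCh38 with STAR and counted them with featureCounts, and the deposited values are raw counts per gene. Of 63241 IDs, 62030 matched the annotation exactly and 62666 without version number. The members and lists were chosen with earlier results of these data known. Genes were kept by filterByExpr (19233 tested), scaled by TMM and tested by edgeR 4.0.16 (R 4.3.3) with the replicate number as a block. This departs from the study's methods, which name DESeq2. Same-numbered libraries deviated together (r from 0.228 to 0.657 in 21 of 22 comparisons), which is where the pairing comes from. All 10 members were described. Of the lists, genes with an adjusted p under 0.05 with P. mirabilis OMVs against PBS or LPS, or with L. casei MVs at 48 h, could be named, at most 12 in each comparison. Alternatives were all 105 libraries, other blocks, DESeq2 1.42.0, other scaling and filters, and each library left out. Leaving out 5 libraries under 1500000 counts, or all of 1 replicate number, was added after seeing the data. The fit was tested on simulated data with known fold changes set in the libraries with P. mirabilis OMVs at 10 h. The simulated data held no time, replicate or lane effects, so the test does not cover those.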

Additional observations from a re-analysis of the deposited data

Results flagged for a closer look

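NOD1 in cells transfected with L. casei MV-RNA at 10 h had 10.7 CPM in replicate 3, against 7.27, 7.6 and 7.63 CPM in the 3 other libraries of the group, a gap to the nearest of 0.895 of the whole range. In all, 17 sets of 1 gene in 1 group were examined in this way, of which chance marks about 1 in 20.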

How the results depend on the processing

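The TLR7 call with P. mirabilis OMVs at 10 h was lost without the replicate block and with all libraries with or without the block, each of which left 0 of the 108 treatment tests. DESeq2 called 0 of them too, and gave TLR7 2.20 ± 0.66 with no adjusted p. Leaving out 1 library left 0 to 1. Against LPS, 1 gene (TLR7) passed with the block set within each time and with no filter on low counts. At 48 h against 24 h, 1 gene passed with all libraries and the block, without the block or with the block within each time, 0 passed with all libraries and no block, and leaving out libraries gave 1 to 3. At 24 h against 10 h leaving out libraries gave 3 to 4 genes, for replicate 3 against 2 it gave 4 to 5, and in the other families of comparisons it gave 0. Of the 71 pathway genes, 4 at 10 h became 1 with all libraries with or without the block and 8 with the block within each time. They became 2 under DESeq2, which gave CXCL5 and CXCL10 no adjusted p, and 2 with a mean of at least 1 CPM, a filter that left both out. The 7 at 24 h became 3 without the block and 0 with all libraries with or without it, and leaving out libraries gave 2 to 5 at either time. With all libraries and no block, RELB (-0.014) and BIRC3 (-0.018) changed sign with L. casei MVs at 48 h, as did BIRC3 with OMVs at 24 h (-0.18, and -0.15 with the block). The causes were not tested. Of 456 results under other settings 423 kept direction and side of the threshold, as did 944 of 1014 with libraries left out. The 423 include results with no adjusted p, which have no side of the threshold, such as TLR7 with OMVs at 10 h under DESeq2. Depth limits NOD2, TLR3, LY96 and TLR4, which had too few counts for a test.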
